A study of Mus musculus with 12 samples.

Results

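The insulin-like growth factor (IGF) system was followed in embryonic mouse hearts through 10 genes, taken by symbol from the 20368 genes of the deposited table. They encode the ligands (*Igf1*, *Igf2*), the receptors (*Igf1r*, *Igf2r*), the binding proteins *Igfbp2*, *Igfbp3*, *Igfbp4* and *Igfbp5*, and the related *Igfbp7* and *Igfbpl1*. All 10 passed the filter on low values in each comparison. The genes were chosen by symbol, with no threshold on a measured value, but the choice followed on differences between genotypes that these libraries had already shown. The tests given here therefore describe the members and are no independent support.

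Hearts were taken at E11.5 and E12.5 from CD1 embryos of 2 genotypes, with 3 libraries of total RNA in each of the 4 groups. Control hearts were *Mesp1Cre*;*Hira*+/fl and mutant hearts were *Mesp1Cre*;*Hira*-/fl, so that both carried *Mesp1Cre* and 1 floxed allele, and the other *Hira* allele was wild type in controls and null in mutants. *Mesp1Cre* recombines in early mesoderm, from which most of the heart forms, whereas cells that enter from other sources, such as neural crest, keep the unrecombined floxed allele. HIRA is a chaperone that deposits the histone variant H3.3. Values are counts scaled by TMM to a common library total (CPM), given per library or as mean ± SD (n = 3), and the same per kilobase (RPKM) where genes were compared with each other. Differences are the log2 of the fold change, mutant over control, written log2FC, with the SE and the Benjamini-Hochberg adjusted p of edgeR's quasi-likelihood test.

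Counts per library ran from 11994148 to 17483982. *Hira* itself, counted over the whole gene, stood at 78.1 ± 8.89 and 64.7 ± 8.42 CPM in E11.5 control and mutant hearts and at 75.1 ± 13.1 and 73.7 ± 5.19 CPM at E12.5, and a count over the whole gene need not show the recombination of part of it. By counts of 4 Y-linked genes, 3 of 3 libraries were called male in E11.5 controls and 1 of 3 in each other group, so sex and group overlap where E11.5 controls enter. They are named male or female embryos or hearts below, although a library pooled from both sexes would also be called male. The 8 cardiomyocyte markers summed to 18645 to 26572 CPM in every library, and the heart label was met. The groups differed in other markers. At E11.5 the 8 epicardial markers summed to 561 to 857 CPM in controls and 359 to 491 in mutants. The 8 macrophage markers summed to 35.3 to 86.7 CPM in controls and 15.5 to 17.7 in mutants at E11.5, and to 100.3 to 123 and 47.8 to 65.9 at E12.5. None of these ranges overlapped between the genotypes. At E12.5 the 7 erythroid markers found summed to 3826 to 6180.1 CPM in controls and 2071 to 2612 in mutants. The 7 neural crest and neuron markers found were the higher in mutants, at 35.5 to 65.5 against 19.3 to 29.2 CPM at E11.5 and 42.7 to 49.5 against 14.9 to 19.9 at E12.5, although *Sox10* and *Foxd3* stayed under 1 CPM in each group mean. The part of these markers in the results on the IGF genes was not tested, and in whole hearts fewer cells of a type and less RNA per cell cannot be told apart.

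IGF1 and IGF2 signal through the tyrosine kinase IGF1R, while IGF2R, also the receptor for mannose 6-phosphate, takes up IGF2 for degradation without signalling as a kinase. The binding proteins hold IGFs in the extracellular space, and proteases release the ligand again. In the mouse embryo *Igf2* is expressed from the paternal and *Igf2r* from the maternal allele, and in the fetal heart IGF2 from epicardium and endocardium is known to promote cardiomyocyte proliferation.

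Promoter sequence is shown for the members with a RefSeq start at the end of the gene model of the files and with either a TATA motif or a call between stages. The lines give the 60 bases before the start on GRCm38.p6, 5′ to 3′ on the strand of the gene, with capitals for a TATAA or TATATA motif. *Igfbp3* lies on the minus strand (chr11:7213924-7213983), *Igfbp4* on the plus strand (chr11:99041184-99041243) and *Igfbp7* on the minus strand (chr5:77408046-77408105).
Igfbp3: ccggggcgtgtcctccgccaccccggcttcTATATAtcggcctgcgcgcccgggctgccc
Igfbp4: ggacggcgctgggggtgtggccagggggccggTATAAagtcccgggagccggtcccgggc
Igfbp7: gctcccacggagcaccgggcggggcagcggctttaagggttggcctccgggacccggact

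The motif began 30 bases before the start of *Igfbp3* and 28 bases before that of *Igfbp4*. RefSeq start sites were found for 9 of the 10 members, 13 in all, and these 2 were the ones with TATAA or TATATA on the gene strand in that window, which 6.18% of 32851 promoters held. The GC box GGGCGG, searched on both strands over 300 bases, was in 6 of the 13 and in 35.7% of all promoters, and GAGAGAGA was in 0 of the 13 and in 3.93%. These are matches of letters and not shown to be sites.

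The level per gene length was led by *Igf2*. In E11.5 controls *Igf2* stood at 793 ± 13.0 RPKM, ahead of *Igf2r* at 192 ± 46.9, *Igfbp5* at 128 ± 16.6 and *Igfbp4* at 109.9 ± 22.2. *Igfbp2* followed at 59.98 ± 12.1 and *Igfbp7* at 40.5 ± 2.61 RPKM. The lowest were *Igfbp3* at 19.1 ± 3.50, *Igfbpl1* at 17.6 ± 3.66, *Igf1* at 12.1 ± 0.397 and *Igf1r* at 10.6 ± 0.454 RPKM. Among neighbours in this order, the libraries of *Igfbp5* and *Igfbp4* overlapped, as did those of *Igfbp3* and *Igfbpl1*. *Igf2* and *Igf2r* kept the first and the second place in all 4 groups, and *Igf2* made up 98.2 to 98.8% of the summed RPKM of the ligands in the 12 libraries. In E12.5 mutants *Igfbpl1* moved to the last place, at 4.81 ± 1.92 RPKM, with no library overlapping those of the next gene above it, *Igf1r*, at 9.46 ± 0.906.

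**Figure D1:**
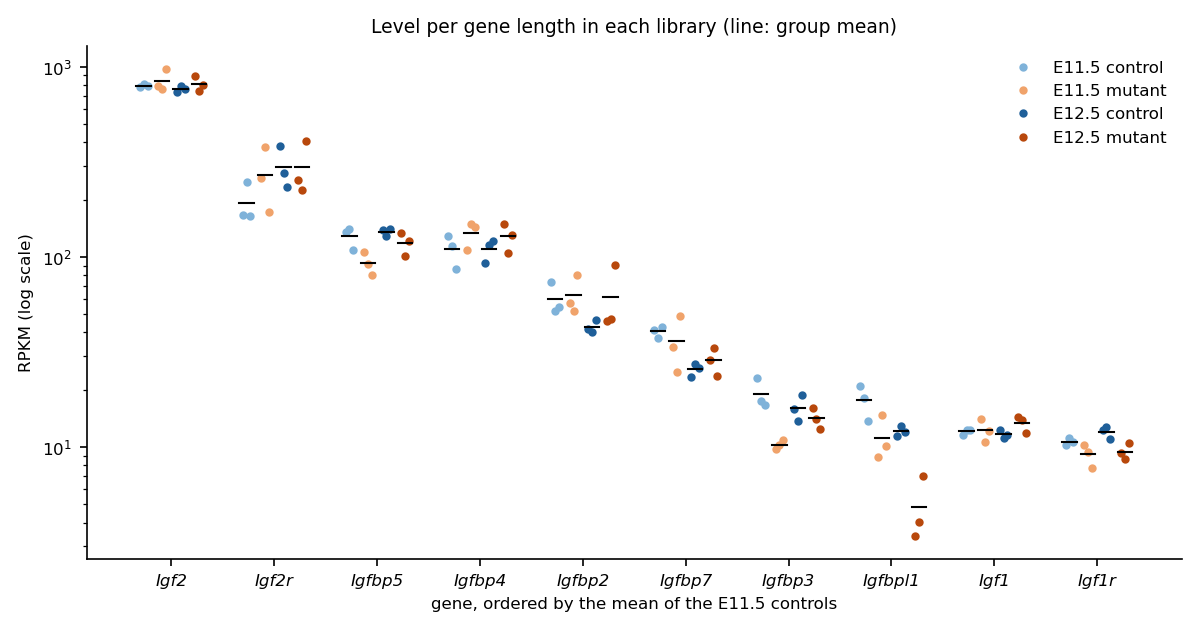
Level per gene length (RPKM, log axis) of the 10 genes in each of the 12 libraries, coloured by group, with a line at each group mean. *Igf2* lies near 800 RPKM in all groups, *Igf2r* is the second in each group and scatters most among the abundant genes, and *Igfbpl1* of E12.5 mutants lies under all other values at 3.41 to 7.001 RPKM.

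*Igfbp2*, *Igfbp4*, *Igfbp5* and *Igfbp7* stood above the signalling receptor *Igf1r* per length in every group, while *Igfbp3* overlapped with it in E11.5 mutants, at 10.3 ± 0.523 against 9.12 ± 1.29 RPKM. *Igfbp2* to *Igfbp5* summed to between 266 and 361 RPKM, of which *Igfbp4* and *Igfbp5* held 70.9 to 82.1%. *Igf2r* exceeded *Igf1r* by a ratio of 15.4 to 40.3 in RPKM. The other members of the binding protein family were at the floor. *Igfbp1* had 14 counts in 1 mutant heart of E11.5 and at most 3 elsewhere, and *Igfbp6* had at most 22.

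The ligands differed little between groups. *Igf2* read 3319, 3424 and 3341 CPM in E11.5 controls and 3357, 3216 and 4130.0 in E11.5 mutants, and 3133, 3353 and 3224 in E12.5 controls and 3772, 3165 and 3413 in E12.5 mutants. All groups overlapped, and the third E11.5 mutant heart was the highest of the 12. Mutant over control, log2FC was 0.10 (SE 0.14) at E11.5 and 0.11 (SE 0.08) at E12.5, with adjusted p of 0.913 and 0.478 by edgeR's quasi-likelihood test. With sex as a term, the value of *Igf2* at E11.5 was 0.32 and was not called. *Igf1* read 90.7, 95.5 and 96.5 CPM in E11.5 controls, 109, 83.4 and 94.9 in E11.5 mutants, 95.8, 87.3 and 90.0 in E12.5 controls and 113, 108 and 92.3 in E12.5 mutants. At E12.5, 2 of the 3 mutant hearts lay above all controls, and the log2FC was 0.21 (SE 0.09, adjusted p = 0.194, edgeR). The spread of the ligands within groups, an SD of 0.12 for *Igf2* and 0.13 for *Igf1* on the log2 scale, was smaller than the median of 0.18 over 12270 genes.

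**Figure D2:**
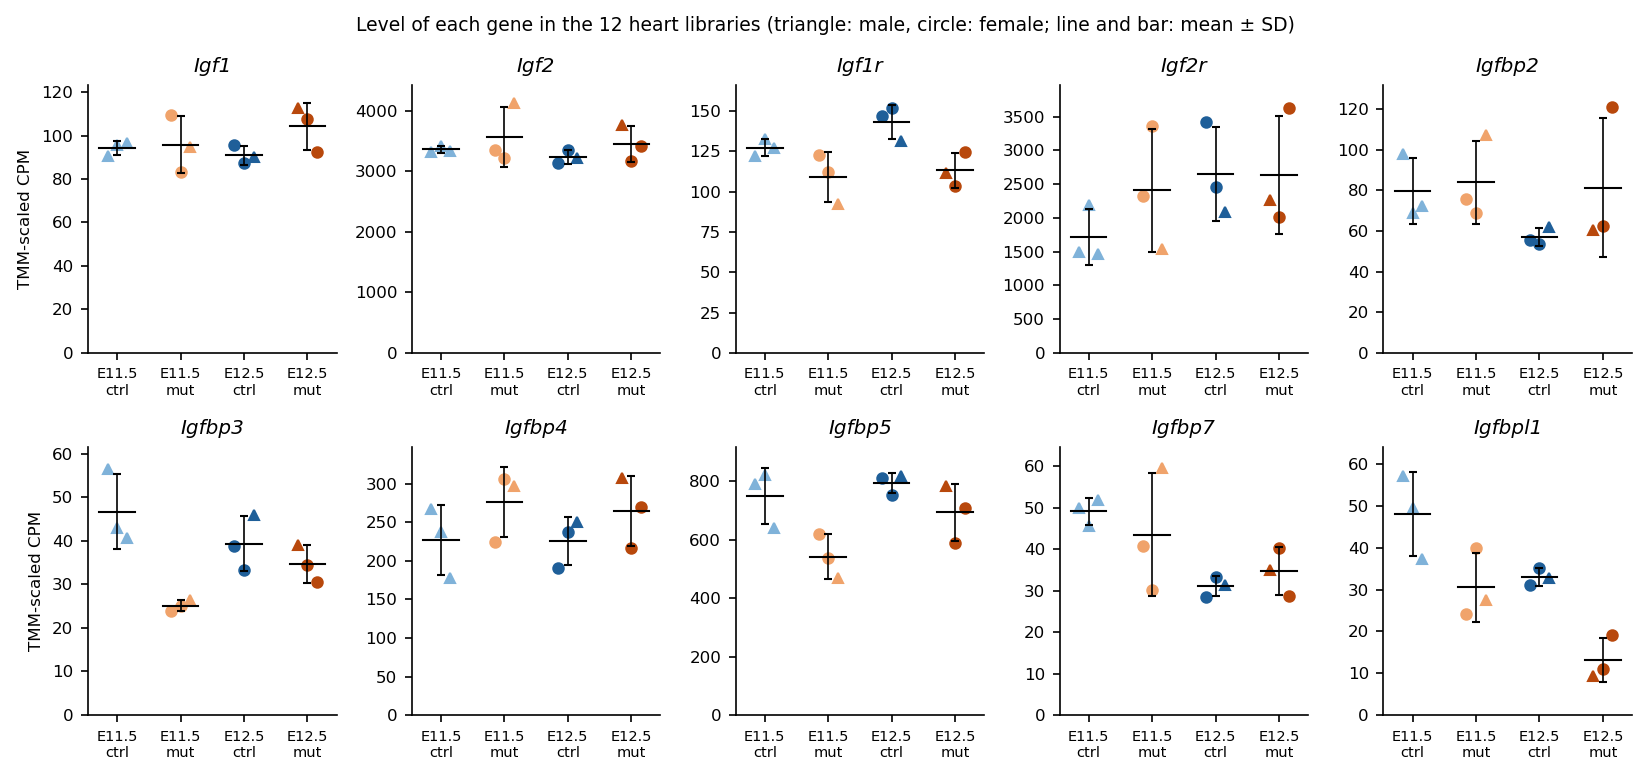
TMM-scaled CPM of each of the 10 genes (linear axes from 0) in the 3 libraries of each group, triangles for male and circles for female embryos, with the mean and SD of the group. *Igfbp3* in E11.5 mutants (24.0 to 26.5 CPM) and *Igfbpl1* in E12.5 mutants (9.30 to 19.1 CPM) lie below every control of the same stage, while *Igf2* and *Igf1* overlap in all groups.

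The receptors behaved differently from each other. *Igf1r* read 122, 133 and 127 CPM in E11.5 controls and 123, 112 and 92.5 in E11.5 mutants, and 147, 152 and 132 in E12.5 controls against 112, 103 and 125 in E12.5 mutants. At E12.5 every mutant heart was below every control heart. Its log2FC there was -0.33 (SE 0.09, adjusted p = 0.0600, edgeR), under the fold threshold of 1.5 and short of the adjusted threshold of 0.05. An exact permutation test of these 3 against 3 libraries, two-sided, gave p = 0.1, the smallest it can give. Over 16 alternatives the log2FC of *Igf1r* at E12.5 stayed between -0.40 and -0.26, with adjusted p from 0.0175 to 0.212. At E11.5 it was -0.21 (SE 0.13, adjusted p = 0.684, edgeR). The share of counts on genes of at least 5000 bases, to which *Igf1r* belongs, was 22.1 to 24.9% in E12.5 controls and 21.4 to 22.4% in E12.5 mutants, and its part in *Igf1r* was not tested.

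*Igf2r* scattered within groups more than any other member. It read 1488, 2198 and 1460.1 CPM in E11.5 controls, 2320.3, 3366 and 1539 in E11.5 mutants, 3429, 2454 and 2081 in E12.5 controls and 2265, 2014 and 3636 in E12.5 mutants. The groups of each comparison overlapped. Its SD within groups of 0.44 on the log2 scale stood at the 98.2nd percentile of the 8749 genes whose mean RPKM was 5 or more. Mutant over control, the log2FC was 0.50 (SE 0.27, adjusted p = 0.614, edgeR) at E11.5 and 0.0058 (SE 0.22, adjusted p = 0.991) at E12.5. With the sex of the embryo as a term, the value at E11.5 turned to -0.13.

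In the 6 male embryos *Igf2r* ran from 1460.1 to 2265 CPM with a median of 1810.1, and in the 6 female embryos from 2014 to 3636 with a median of 2910.0. That share on long genes also differed between libraries, from 16.3 to 24.9%, members left out. *Igf2r*, with 8929 bases, had a Pearson correlation of 0.80 (Spearman 0.81) with this share over the 12 libraries, and *Igfbp7*, with 1213 bases, one of -0.88 (Spearman -0.89). *Igf1r*, with 11978 bases, had one of 0.65 (Spearman 0.56). These correlations are descriptions over libraries of 4 groups. Sex, stage and the share on long genes cannot be told apart in them, since the 3 E11.5 control hearts were male and 2 of them had low shares. *Igf2r* overlaps the noncoding antisense transcript *Airn* on chromosome 17 (12682406 to 12769664 on GRCm38), and because the use of strand in counting is not given in the sources used here, reads of *Airn* could be among its counts.

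**Figure D3:**
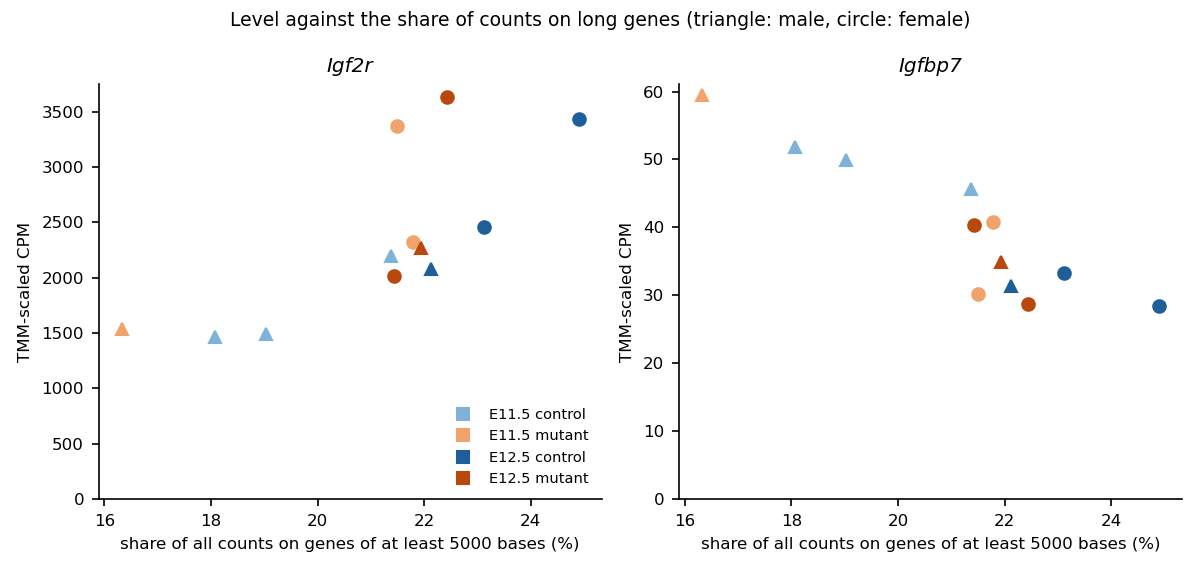
TMM-scaled CPM of *Igf2r* (left) and *Igfbp7* (right) against the percentage of a library's counts on genes of at least 5000 bases, 1 point per library, coloured by group, triangles for male and circles for female embryos. *Igf2r* is lowest and *Igfbp7* highest in the libraries with shares under 20%.

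Among the binding proteins, none was called at E11.5. A call required an adjusted p of 0.05 or less together with a 1.5-fold change, a rule that called 0.115% of the 12197 genes tested. *Igfbp3* (chromosome 11, 7206086 to 7213923, minus strand), the main carrier of IGFs in adult blood, came closest. It read 56.5, 42.9 and 40.6 CPM in E11.5 control and 24.0, 24.9 and 26.5 in E11.5 mutant hearts, so that the groups were separate. The fold was 1.85 lower in mutants (log2FC -0.89, SE 0.15, adjusted p = 0.0859, edgeR), and the exact permutation p was 0.1. The adjusted p passed in 3 of 16 alternatives, DESeq2 (3.21e-04), a joint fit of the 12 libraries (0.0118) and the table without a filter (0.0311), and was 0.0643 to 0.324 with 1 library left out. The single male mutant heart read 26.5 CPM, and the 3 controls, all of them male, 40.6 to 56.5. With sex as a term the log2FC was -0.79 and was not called. That fit rests on 1 male mutant library, and the part of sex in *Igfbp3* was not tested.

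At E12.5 *Igfbp3* read 38.9, 33.4 and 45.9 CPM in controls and 39.0, 34.5 and 30.5 in mutants, and the groups overlapped. Here log2FC was -0.17 (SE 0.13, adjusted p = 0.491, edgeR). The genotype effect was more positive at E12.5 by 0.72 on the log2 scale (SE 0.21, unadjusted p = 0.00504, adjusted p = 0.658, edgeR over all 12 libraries), so a difference between stages was not called. In that test edgeR called 0 of the 12270 genes, with 551 (4.49%) at an unadjusted p under 0.05, and DESeq2 called 40. None of the 10 members was called there by either tool, and *Igfbp3* was the 1 member at an unadjusted p under 0.05. Of the 8 epicardial markers 0 were called at E11.5 and 1, higher, at E12.5, beside 0.115% and 2.95% of all genes. An unadjusted p under 0.05 (edgeR) was reached by 7 of them at E11.5 and 1 at E12.5, beside 10.2% and 21.4% of all genes. At E11.5, 6 were lower in mutants with separate groups, beside 16.4% of all genes in either direction. The median log2FC of the epicardial markers was -0.71 at E11.5 and 0.14 at E12.5. The summed macrophage markers were lower in mutants at both stages, and the neural crest and neuron markers were higher in mutants at both. The part of all these markers in the values of *Igfbp3* was not tested.

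*Igfbp5*, a binding protein held in the extracellular matrix, read 789, 821 and 639 CPM in E11.5 controls and 620.4, 536 and 468 in E11.5 mutants. Each mutant was below each control, by a small gap. Its log2FC was -0.46 (SE 0.16, adjusted p = 0.327, edgeR). At E12.5 it read 810.1, 754 and 816 CPM in controls and 783, 589 and 709.7 in mutants, which overlapped, with a log2FC of -0.18 (SE 0.10, adjusted p = 0.335). *Igfbp5* and *Igfbp2* are neighbours on chromosome 1, transcribed towards each other with 5457 bases between their ends.

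*Igfbp2* took a different course. It read 98.2, 68.7 and 72.4 CPM in E11.5 controls, 75.6, 69.1 and 107 in E11.5 mutants, 55.5, 53.6 and 62.0 in E12.5 controls and 60.8, 62.3 and 121 in E12.5 mutants. The third heart of the E12.5 mutants stood well above the other 2, which lay within or just above the controls. At E12.5 log2FC was 0.53 (SE 0.22, adjusted p = 0.195, edgeR), and without that heart it was 0.12. The 8 hepatocyte markers summed to 18.7 CPM in that heart, to 57.8 and 11.0 in the other E12.5 mutants and to 6.76 to 11.8 in E12.5 controls. At E11.5 they summed to 27.5, 4.85 and 5.33 CPM in controls and to 61.7, 8.93 and 3.79 in mutants. The part of these markers in *Igfbp2* was not tested. At E11.5 the log2FC of *Igfbp2* was 0.08 (SE 0.20, adjusted p = 0.952, edgeR), and 0.45 with sex as a term, which was not called.

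*Igfbp4*, which PAPP-A cleaves to free IGF, ran from 178 to 308 CPM over the 12 libraries. The genotypes overlapped at both stages, and the log2FC was 0.29 (SE 0.18, adjusted p = 0.702, edgeR) at E11.5 and 0.24 (SE 0.13, adjusted p = 0.321) at E12.5.

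**Figure D4:**
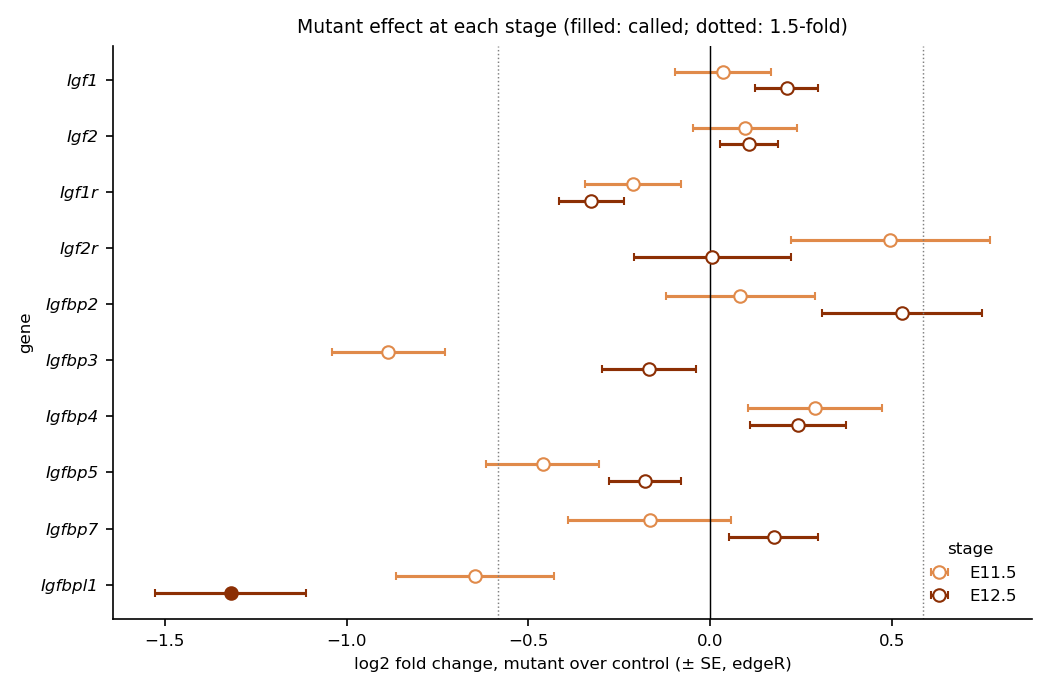
Log2FC of mutant over control hearts (± SE, edgeR) for the 10 genes at E11.5 (light) and E12.5 (dark), filled where called, with dotted lines at a 1.5-fold change. *Igfbpl1* at E12.5, at -1.32, is the filled point. At E11.5 *Igfbp3*, at -0.89, and *Igfbpl1*, at -0.65, lie beyond the dotted line without being called.

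*Igfbpl1* (chromosome 4, 45809468 to 45826923 on GRCm38, minus strand), which encodes a secreted protein with an IGF-binding domain, was the member downregulated in E12.5 mutant hearts. It read 31.0, 35.2 and 32.8 CPM in E12.5 controls and 9.30, 11.0 and 19.1 in E12.5 mutants, from 470 to 624 counts against 139 to 292. The groups were well apart, the highest mutant heart lying far below the lowest control. The fold was 2.49 lower (log2FC -1.32, SE 0.21, adjusted p = 0.00750, edgeR), and the exact permutation p was 0.1. At this stage 2.95% of the 12257 genes tested were called. The call held in all 16 alternatives, including the 6 that left out 1 library, with log2FC values from -1.69 to -1.13. The male mutant heart read 9.30 CPM against 32.8 in the male control, and the female mutant hearts 11.0 and 19.1 against 31.0 and 35.2, which sets 1 male library against 1 and 2 female libraries against 2.

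At E11.5 *Igfbpl1* read 57.1, 49.6 and 37.3 CPM in controls and 24.2, 39.9 and 27.5 in mutants. Here 1 mutant heart was above the lowest control. That gave a log2FC of -0.65 (SE 0.22, adjusted p = 0.327, edgeR), and the test of the difference between stages gave -0.67 (SE 0.35, adjusted p = 0.956). Over the 4 groups, E11.5 controls at 48.0 ± 9.99 CPM were separate from E12.5 controls at 33.0 ± 2.10, these overlapped with E11.5 mutants at 30.5 ± 8.31, and E12.5 mutants at 13.1 ± 5.25 were separate from the rest. At E12.5 the macrophage, erythroid and neuron markers given above also separated the genotypes. So did the summed skeletal muscle markers, at 9.50 to 34.5 CPM in controls and 36.4 to 55.6 in mutants. That list holds *Tnnt3*, which the paper reports as upregulated in mutant hearts. Of its 3 genes tested at E12.5, 0 were called, beside 2.95% of all genes. *Myod1* and *Myog* averaged 0.616 and 1.46 CPM in E12.5 mutants. The summed cushion mesenchyme markers overlapped, and 1 of these 8, *Postn*, was called lower in mutants, beside 2.95% of all genes called. The part of all these markers in *Igfbpl1* was not tested.

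The genes with profiles most like that of *Igfbpl1* over the 12 libraries were *Spink2*, *Ust* and *Col2a1*, with a root mean square difference of 0.37, 0.39 and 0.42 between centred log2 levels, among 12270 genes. In the order E11.5 control, E11.5 mutant, E12.5 control and E12.5 mutant, *Spink2*, a serine protease inhibitor, stood at 4.14 ± 0.425, 1.62 ± 0.345, 2.44 ± 0.356 and 1.001 ± 0.404 CPM. *Ust*, a sulfotransferase acting on glycosaminoglycans, stood at 6.87 ± 0.421, 3.63 ± 0.0653, 4.82 ± 0.913 and 2.60 ± 0.352 CPM. *Col2a1*, a collagen of cartilage and of the embryonic valves, stood at 276 ± 67.1, 237 ± 54.0, 192 ± 25.5 and 106 ± 31.2 CPM, so its E11.5 mutants lay above its E12.5 controls on average, whereas the reverse held for *Spink2* and *Ust*.

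*Igfbp7*, a matrix protein that binds IGFs weakly, did not separate the genotypes. It read 49.9, 45.6 and 51.8 CPM in E11.5 controls, 40.8, 30.2 and 59.5 in E11.5 mutants, 28.4, 33.2 and 31.4 in E12.5 controls and 34.9, 40.4 and 28.7 in E12.5 mutants. The log2FC of mutant over control was -0.17 (SE 0.22, adjusted p = 0.904, edgeR) at E11.5, where it turned to 0.30 with sex as a term, and 0.17 (SE 0.12, adjusted p = 0.453) at E12.5. It overlaps *Polr2b* on the other strand, so some of its counts are uncertain.

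The change from E11.5 to E12.5 was compared within each genotype, on libraries that the genotype comparisons share. In controls 5.28% of the 12252 genes tested were called, and among the members *Igfbp7* was, with a log2FC of -0.66 (SE 0.10, adjusted p = 0.0112, edgeR). All E12.5 controls were below all E11.5 controls, and the male E12.5 control, at 31.4 CPM, was below the 3 male E11.5 controls. The call was lost with sex as a term (adjusted p = 0.292), in the joint fit of the 12 libraries (0.0686) and without the first E12.5 control (0.0591), while the log2FC stayed between -0.73 and -0.60. The share of counts on genes of at least 5000 bases was 18.1 to 21.4% in E11.5 and 22.1 to 24.9% in E12.5 controls, and its part was not tested.

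*Igfbpl1* was lower at E12.5 in controls as well, at an adjusted p of 0.0414 (edgeR) but a fold of 1.45, under the threshold. In the joint fit of the 12 libraries its adjusted p was 0.164 (edgeR). With sex as a term its log2FC was -0.54 and was not called. *Igfbp2* had a log2FC of -0.48 (SE 0.14, adjusted p = 0.0507, edgeR) with separate groups, which was -0.36 with sex as a term. Its adjusted p in the joint fit was 0.222 (edgeR). *Igf2r* had a log2FC of 0.63 (SE 0.20, adjusted p = 0.0628, edgeR) with overlapping groups, which was 0.29 with sex as a term. *Igf2r* was called in 5 of the 16 alternatives, among them DESeq2 (adjusted p = 0.00998) and the fit without the second E11.5 control (0.00777), in which 3 members were called. Separate groups were seen for 3 of the 10 members, *Igfbp2*, *Igfbp7* and *Igfbpl1*, and for 37.4% of all genes tested.

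In mutants, none of the 10 members was called between stages by edgeR and 3 had an unadjusted p under 0.05, where 0.556% of the 12238 genes were called and 9.27% had such a p. DESeq2 and the joint fit of the 12 libraries each called 1, *Igfbpl1*, whose log2FC was -1.22 (SE 0.29, adjusted p = 0.152 with edgeR, 0.00358 with DESeq2 and 0.0368 in the joint fit). *Igfbp3* had a log2FC of 0.46 (SE 0.13, adjusted p = 0.253, edgeR), each E12.5 mutant reading above each E11.5 mutant.

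Counted over the members, edgeR called 0 of 10 at E11.5 and 1 of 10 at E12.5, with median log2FC values of -0.07 and 0.06 beside 0.00 for all genes. An unadjusted p under 0.05 was reached by 3 members at E11.5 (*Igfbp3*, *Igfbp5* and *Igfbpl1*), where 10.2% of all genes had one, and by 4 at E12.5 (*Igf1*, *Igf1r*, *Igfbp2* and *Igfbpl1*), where 21.4% did. The genotypes were separate for 2 members at each stage, all of them lower in mutants, beside 16.4% of all genes in either direction at E11.5 and 26.4% at E12.5. Nothing is read from these counts, as the list was chosen with results known.

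The other genes of the pathway, 57 in 6 groups of which 56 were found, gave 0 calls among 49 tested at E11.5 and 1 among 50 at E12.5, an increase. All genes had 0.115% and 2.95% called. The unadjusted p was under 0.05 for 4 and 11 pathway genes, beside 10.2% and 21.4% of all genes, and the median log2FC was 0.05 and -0.01. The gene called was *Stc2*, stanniocalcin 2, an inhibitor of the PAPP-A proteases that cleave IGF binding proteins. It read 6.66, 6.32 and 6.33 CPM in E12.5 controls and 14.9, 10.5 and 12.5 in E12.5 mutants. Mutants were separate from controls, and *Stc2* was upregulated by a log2FC of 0.98 (SE 0.16, adjusted p = 0.00921, edgeR). At E11.5 it read 5.16, 6.14 and 4.98 CPM in controls and 11.4, 6.99 and 9.21 in mutants, separate again, with a log2FC of 0.77 (SE 0.24, adjusted p = 0.279).

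In the group of *Stc2*, 5 of 6 genes were tested at E12.5 and 4 had an unadjusted p under 0.05, beside 21.4% of all genes, a group singled out after its values were seen. The others, *Stc1*, its paralog and a further inhibitor, *Pappa*, a protease, and *Htra1*, another protease, were named after their values were seen. *Pappa2*, also a protease and named in the same way, fell under the filter and was not tested. It read 0.858 to 1.47 CPM in E12.5 controls and 2.16 to 4.08 in E12.5 mutants. The log2FC of *Stc1* was 0.64 (SE 0.20, adjusted p = 0.0906, edgeR) and that of *Pappa* 0.33 (SE 0.12, adjusted p = 0.149), with mutants above controls for both. That of *Htra1* was -0.27 (SE 0.10, adjusted p = 0.161), with overlapping groups. *Grb14*, an adaptor that inhibits the insulin receptor, passed the adjusted threshold at E12.5 but not the fold, from 54.3 ± 8.49 to 75.3 ± 2.66 CPM (log2FC 0.48, SE 0.11, adjusted p = 0.0280). At E11.5 *Grb14* read 41.0 to 48.5 CPM in controls and 69.2 to 88.2 in mutants, a log2FC of 0.78 (SE 0.14, adjusted p = 0.0901).

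Downstream of the receptors, of 21 genes of the PI3K-AKT-mTOR group 0 were called at either stage, and the largest log2FC at E12.5 was that of *Rictor*, a subunit of mTOR complex 2, at -0.36 (SE 0.10, adjusted p = 0.0675, edgeR). Of 8 RAS-ERK genes 0 were called, and *Sos1*, an exchange factor for RAS, was at -0.23 (SE 0.08, adjusted p = 0.121). Of the 6 genes found that act at the *Igf2* locus or on its mRNA, *Hmga2* had the largest value at E12.5, 0.12 (SE 0.08, adjusted p = 0.400). Among other family members 2 of 7 were tested at E12.5, and *Igfbp6* had a log2FC of 0.37 (SE 0.46) on at most 22 counts.

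**Figure D5:**
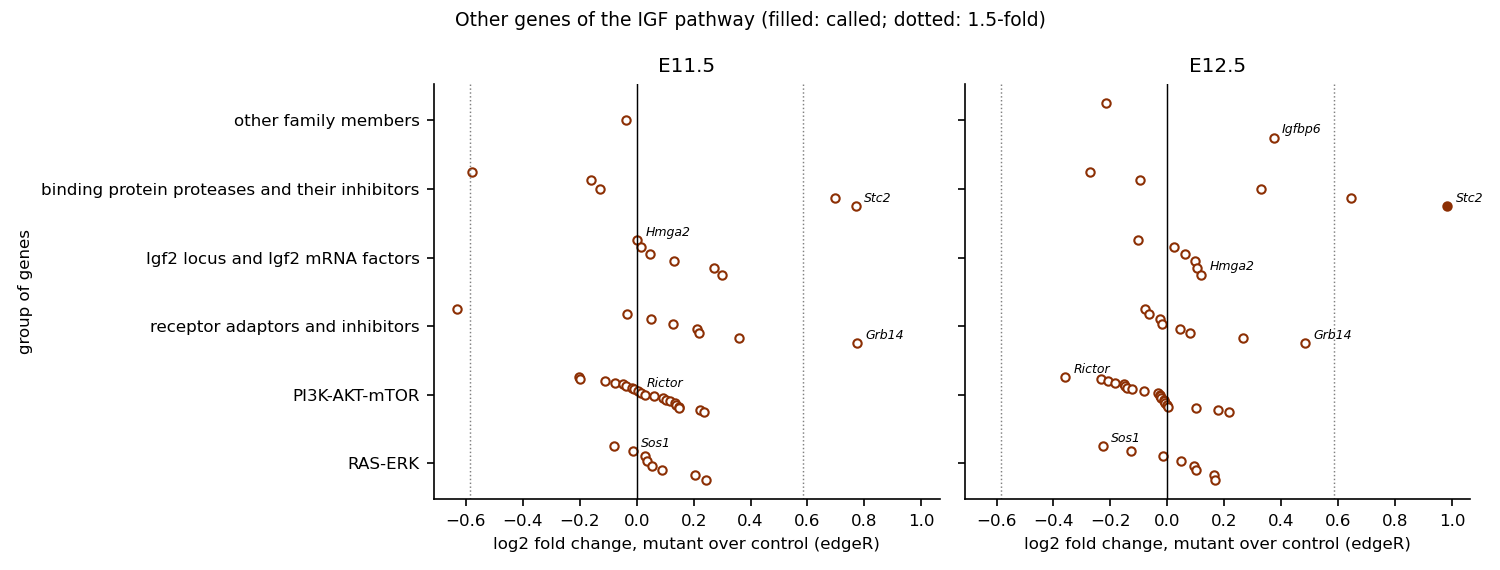
Log2FC of mutant over control (edgeR) for the tested genes of the 6 pathway groups at E11.5 (left) and E12.5 (right), 1 point per gene, filled where called, with dotted lines at a 1.5-fold change and the gene named by the rule labelled in each group. *Stc2* at E12.5, at 0.98, is the filled point, and the PI3K-AKT-mTOR and RAS-ERK genes lie inside the dotted lines at both stages.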

How the data were processed

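RNA was extracted in triplicate from control and mutant hearts at E11.5 and E12.5 and sequenced as paired ends. Reads were aligned with BOWTIE (Bowtie2 and mm10 per the labels) and normalised with DESeq by the authors. The counting program and its use of strand are not given in the sources used here. The authors deposited a signal table named RPKM, in which each value was a whole count multiplied by the gene length and a library factor, and comparison tables with average counts per group (expected counts deposited by the authors). Their own p-values, z scores and fold changes in those tables were not used. The average counts fixed the factors (11290 genes), and counts recovered for 17827 genes lay within 4.22e-10 of whole numbers. A simulated table returned 3997 of 3997 genes.

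Counts were scaled by TMM and tested with the quasi-likelihood test of edgeR 4.0.16 (R 4.3.3) on genes whose RPKM averaged 0.5 or more in the libraries fitted. P-values were adjusted by Benjamini-Hochberg over all genes tested. A call needed an adjusted p of 0.05 or less and a 1.5-fold change, the study's thresholds. SE is the log2 fold change over the root of F. The script was tested on simulated counts. Mutants are compared with littermates in the study, but which hearts share a litter is not given in the sources used here, nor whether the triplicates are separate embryos, so p-values measure the spread between these samples. Libraries with at least 100 counts on 4 Y-linked genes were called male, which a pool of both sexes would be too. Alternatives were no filter or one at an RPKM of 5, DESeq2 1.42.0, edgeR with median-ratio scaling, limma 3.58.1 on log2(RPKM + 0.5) or log2(RPKM + 0.1), no fold threshold, a joint fit of the 12 libraries, sex as a term, the replicate number as a block, and each library left out. Named genes were the members, *Igfbp1*, *Igfbp6*, *Hira*, pathway genes called or else the largest change per group at E12.5, and the 3 genes closest in profile to a member whose group means span at least 1 log2 unit. The members and lists were chosen with earlier results of these data known. The further marker lists were endocardium and endothelium (986 to 1728 CPM summed), cushion mesenchyme (1587 to 2447) and skeletal muscle (9.50 to 56.5). Promoters are from RefSeq on GRCm38.p6, and *H19* was not analysed here.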

Additional observations from a re-analysis of the deposited data

How the results depend on the processing

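Over 850 values of the members under the alternatives, 786 kept direction and side of the threshold, 13 gained a call, 3 lost one and 48 changed sign, all of the last being values that were not called. The number of members called at E11.5 was 1 with no filter, DESeq2 and a joint fit of all 12 libraries. In the stage comparison of controls it was 2 with no fold threshold, no filter, DESeq2 and the replicate block, and 0 with the joint fit and with sex as a term. In mutants it was 1 with DESeq2 and the joint fit. With 1 library left out it was 0 at E11.5, 1 at E12.5, 0 to 3 in controls between stages (3 without E11.5 control replicate 2, with *Igf2r* and *Igfbp2* added, 2 without E11.5 control replicate 3 or E12.5 control replicate 3, with *Igfbpl1* or *Igf2r* added, and 0 without E12.5 control replicate 1), 0 in mutants, and 0 for the difference between stages. Pathway genes called at E11.5 numbered 1 with no filter, the joint fit and the replicate block, and 2 with DESeq2. At E12.5 they numbered 2 with no fold threshold, DESeq2 and the replicate block, 3 with no filter, and 1 to 2 with 1 library left out (2 without control replicate 3).

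With sex as a term, log2 fold changes changed sign for *Igf2r* (-0.13) and *Igfbp7* (0.30) at E11.5, and for *Igf2* (-0.11) and *Igf1r* (0.014) in the difference between stages. *Igf2r* at E12.5, at 0.0058, turned to -0.028 with limma at either pseudocount, to -0.0016 in the joint fit and to -0.017 with the replicate block. *Igfbp4* between stages in controls at -0.0049, turned to 0.018 with a mean RPKM of 5 or more, 0.042 with limma at either pseudocount, 0.00010 in the joint fit, 0.15 with sex as a term and 0.0054 with the replicate block.

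Leaving out 1 library turned signs for *Igf1* (-0.073 to 0.13), *Igf2* (-0.030 to 0.17), *Igfbp2* (-0.14 to 0.26) and *Igfbp7* (-0.46 to 0.046) at E11.5, and for *Igf2r* at E12.5 (-0.30 to 0.23). It did so in controls between stages for *Igfbp4* (-0.15 to 0.13) and *Igfbp5* (-0.017 to 0.14), and in mutants for *Igf1r* (-0.046 to 0.15), *Igf2* (-0.13 to 0.078), *Igf2r* (-0.16 to 0.44), *Igfbp2* (-0.44 to 0.18) and *Igfbp4* (-0.19 to 0.066). In the difference between stages it did so for *Igf2* (-0.064 to 0.14) and *Igfbp4* (-0.19 to 0.10). The cause was not tested.

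Replicate numbers are not stated to pair hearts, and the correlations of same-numbered deviations were -0.03, 0.43 and 0.29 at E11.5 and 0.02, 0.06 and 0.02 at E12.5. With the replicate block, 73 of all genes were called at E11.5 in place of 14, and 36 between stages in mutants in place of 68. Over all genes, the E11.5 calls were 73 with no filter, 6 with a mean RPKM of 5 or more, 248 with DESeq2, 214 in the joint fit, 29 with sex as a term, 8 without control replicate 2, and 0 without control replicate 1 or 3 or mutant replicate 1 or 2. The 362 calls of E12.5 became 613 with no fold threshold, 157 with a mean RPKM of 5 or more and 122 in the joint fit, and 151, 235 and 216 without control replicate 1, control replicate 2 and mutant replicate 1. The 647 calls between stages in controls became 1402, 363 and 344 under these settings and 19 with sex as a term, and 263, 1407 and 185 without E11.5 control replicate 1, 2 and 3, and 44 and 108 without E12.5 control replicate 1 and 2. The 68 calls in mutants became 119 with no filter, 29 with a mean RPKM of 5 or more, 227 with DESeq2 and 125 in the joint fit, and 123 without E11.5 mutant replicate 3, and 11, 1 and 10 without E12.5 mutant replicate 1, 2 and 3. Without E11.5 mutant replicate 3, 10 genes were called in the difference between stages. Depth limits *Igfbp1* and *Igfbp6*, with at most 14 and 22 counts.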
